A study of Caenorhabditis elegans with 9 samples.

Results

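The genes described here are those that the authors listed as higher in VA motor neurons of unc-4 mutants than of wild type and that carry only a sequence name in the deposited table, that is, the name of a genomic clone followed by a number. Of the 214 genes in that table, 100 had such a name. Set aside were 3 of these by name (Y67D8B.4, Y23B4A.2 and C32C4.1) and a further 3 that the second deposited table, of wild type VA neurons against whole worms, also holds, which left 94 genes, of 2550 distinct genes in both tables. In Caenorhabditis elegans, VA neurons belong to the cholinergic motor neurons that drive backward movement. Both groups consisted of neurons from synchronized L2 larvae carrying pUnc-4::mCherry and pUnc-4C::GFP, sorted from dissociated larvae as cells with the red signal alone, a gate that per the labels also takes AVF neurons. There were 3 libraries of wild type VA neurons and 3 of unc-4 VA neurons, amplified from little RNA with a SMART-Seq kit, and the 3 libraries of whole N2 larvae enter here only through the genes set aside. The labels name the mutant as unc-4 without an allele and give both groups the same reporter strain. Whether replicates stem from separate worm cultures is not stated, so p-values cover only the spread between these libraries, and that spread may be technical. Library numbers in the labels are 33, 34 and 67 for wild type replicates 1 to 3 and 64, 65 and 66 for unc-4 replicates 1 to 3. Whether these numbers mark batches is not stated, and among the higher ones wild type has 1 library, too few for a comparison within them.

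UNC-4 carries a homeodomain and acts as a transcriptional repressor. With its Groucho-like partner UNC-37 it keeps genes of the sister VB neurons silent in VA neurons. Loss of UNC-4 function gives VA neurons the synaptic inputs of VB neurons. The homeobox gene ceh-12 is a known target of this repression. A sequence name means that no gene name had been assigned when the table was made, and most of the genes below have no described role in the sources used here.

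Values are TPM, the authors' normalised transcript abundance, which are scaled by transcript length and by the library total, so that levels of different genes can be compared. They keep no sequencing depth, and depth is unknown here. Genes entered the table because the authors called them higher in these same libraries. The direction of each difference is therefore set by the choice of genes, and the counts and tests below describe its size and its spread over libraries. In sorted pools, more cells that express a gene and more RNA of it per cell cannot be told apart. The wild type libraries listed 7 of 7 cholinergic motor neuron markers above whole worms. None of these is in the mutant table, and unc-4 itself is not in it, so the genotype labels cannot be checked on its transcript. Of the list of 6 VB and UNC-4 target genes, ceh-12 and acr-16 were in the mutant table. From the same list, del-1 and glr-4 were found only in the second deposited table, which sets the wild type libraries beside whole larvae. The remaining members were in neither table. What the place of del-1 and glr-4 means for repression by UNC-4 was not tested. In unc-4 replicates 1 to 3 ceh-12 read 40.2, 139 and 85.5 TPM, and in wild type it read 0.620, 0.498 and 1.11 TPM, without overlap. The acetylcholine receptor gene acr-16 read 37.3, 0.341 and 54.7 TPM in the mutant and 2.16, 1.74 and 0.825 TPM in wild type, so that its mutant replicate 2 lay below all wild type libraries.

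Together the 94 genes took 2.32%, 0.421% and 1.93% of all TPM in unc-4 replicates 1, 2 and 3, whereas wild type replicates 1, 2 and 3 gave them 0.167%, 0.0719% and 0.156%. The groups did not overlap, which the choice of genes favours, and unc-4 replicate 2 was far below the other mutant libraries. The other 120 genes of the table took 4.05%, 1.35% and 4.35% in unc-4 replicates 1, 2 and 3, with the same low replicate 2. The ratio of mean sums was 11.8, beside 12.6 for those other genes. The 3 most abundant of the 94 made up 0.630% of all TPM on average in the mutant, out of 1.56% for the 94. Mean levels ran from 6.32 to 2738 TPM in unc-4 VA neurons with a median of 54.4 TPM, and from 0.0252 to 337 TPM in wild type with a median of 3.48 TPM. Of the 94 genes, 24 (25.5%, beside 34.6% of the table) averaged at least 100 TPM in the mutant. In wild type 75 (79.8%, beside 69.6%) averaged under 10 TPM. The median ratio of mean TPM was 16.8, beside 14.9 over all 214 genes of the table. Over the 84 genes with no wild type library listed at 0, the ratio ran from 4.92 to 152. The authors' deposited table gives these genes folds from 4.18 to 311, with a median of 13.95, and FDR p-values from 1.37e-11 (C29E4.10) up to 0.0474 (F56C4.4). F56C4.4, the gene nearest to the threshold, read 91.9, 2.73 and 42.3 TPM in the mutant against 1.51, 1.76 and 6.18 TPM, with overlap. Genes just past the authors' FDR threshold are not analysed here.

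In 67 of the 94 genes (71.3%) the lowest unc-4 library exceeded the highest of wild type, which is called separated below, beside 70.1% of all genes in the table. Because the table was selected on this difference, nothing is read from these shares. On log2(TPM + 1), limma's test over all 214 genes passed 77 of the 94 at an adjusted p under 0.05, beside 80.8% of the table. The lowest adjusted p among them was 0.0197 (T26C5.5), and limma's standard errors were 0.79 or more. The genes were selected on these same libraries, so passing, here and for single genes below, is no independent evidence. The number of calls changed when single libraries were left out. Without unc-4 replicate 2 all 94 passed, beside 98.6% of the table. Without unc-4 replicate 1 the count was 18 (19.6% of the table), and without wild type replicate 3 it was 3 (6.54%). Without wild type replicate 1, wild type replicate 2 or unc-4 replicate 3 it was 0, beside 0.935%, 0.467% and 0.00% of the table. Fewer libraries also weaken the test, so a lost call does not by itself mean a smaller difference. The median log2 ratio of mean TPM over the 94 was 4.07 with all libraries. It was 4.29, 3.80 and 4.11 without wild type replicates 1, 2 and 3, and 3.38, 4.47 and 3.70 without unc-4 replicates 1, 2 and 3.

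**Figure D1:**
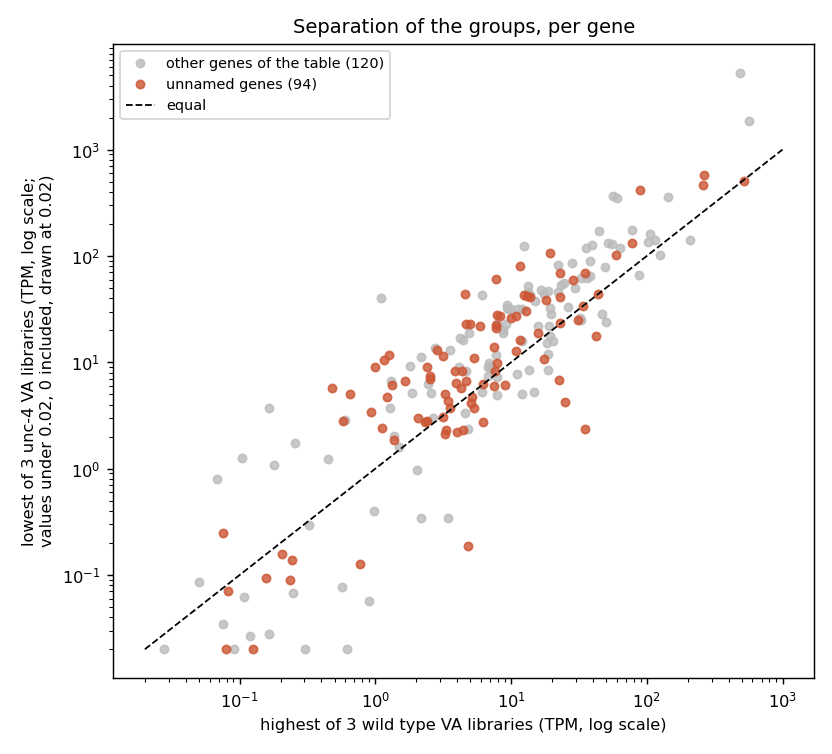
Each point is a gene of the mutant table, with its highest wild type VA library on the x axis and its lowest unc-4 VA library on the y axis, both in TPM on log scales; the dashed line marks equal values. Of the 94 unnamed genes 67 lie above the line and 27 on or below it, among the 120 other genes of the table in grey.

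Since the table was made, 9 of the 94 genes have received names in current annotation, and Y47H9A.1 now has the sequence name C17D12.3. Among these 9 are 3 neuropeptide-like precursor genes, whose products are cut into short signalling peptides. The precursor gene C45G9.13, now nlp-43, read 428, 103 and 1382 TPM in unc-4 replicates 1 to 3. In wild type it read 59.6, 4.20 and 56.8 TPM. Mutant replicate 3 was highest, without overlap between the groups, and the ratio of means of 15.9 dropped to 6.60 without that library. The precursor gene Y73B6BL.35, now nlp-71, read 418, 505 and 450.1 TPM in the mutant and 89.4, 27.2 and 47.5 TPM in wild type. Its mutant libraries were nearly level, and it rose by 3.20 ± 0.80 (SE) on the log2(TPM + 1) scale (adjusted p = 0.0230 by limma). The precursor gene F14F11.2, now nlp-55, read 239, 25.2 and 389 TPM in the mutant and 31.0, 6.06 and 16.2 TPM in wild type. For this gene mutant replicate 2 fell below wild type replicate 1, so the groups overlapped. Its ratio of 12.2 became 19.5 without wild type replicate 1 and 7.42 without mutant replicate 3.

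Current names also mark 2 genes linked to endocytosis. Coelomocytes are scavenger cells of the body cavity that take up material by endocytosis, and cup genes are named for defects in that uptake. C34C6.7, now cup-16, read 83.1, 11.4 and 47.7 TPM in unc-4 replicates 1 to 3 and 1.30, 0.921 and 3.15 TPM in wild type, without overlap. ZC116.3, now cubn-1, which the table describes as the ortholog of human cubilin, an endocytic receptor, read 54.4, 2.29 and 17.6 TPM in the mutant and 0.503, 1.21 and 3.31 TPM in wild type. Its replicate 2 lay below wild type replicate 3. The exons of cup-16 share 9.13% of their bases with the neighbouring gene srg-15, and no strand setting is given in the sources used here, so a part of its reads may belong to that gene.

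Of the list of 6 coelomocyte markers, cup-4 and unc-122 were in the mutant table and lgc-26, cup-5, rme-1 and cdr-4 were not. The summed level of cup-4 and unc-122 was 1831, 173 and 686 TPM in unc-4 replicates 1 to 3. In wild type replicates 1 to 3, it was 38.6, 55.6 and 141.6 TPM. Both marker genes thus had the order replicate 1, then 3, then 2 in the mutant, as cup-16 and cubn-1 did, and read highest in wild type replicate 3. The same mutant order was seen in 46 of the 94 genes (48.9%) and in 93 of the 214 genes of the table (43.5%). In 18 of the 94 (19.1%), replicate 1 also exceeded replicate 3 by at least the 2.48 times of cup-4, beside 34 of 214 (15.9%) in the table; this measure was chosen after the values were seen. The part that coelomocyte RNA has in these values was not tested. Of the lists for body wall muscle, pharynx, intestine, hypodermis and cuticle, germline, ciliated sensory neurons, glutamate, dopamine and serotonin neurons, and glia, no member was in the mutant table, and of the 5 GABA neuron markers only unc-30 was. A gene not in that table may still be present in the libraries at a level that did not pass.

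The other newly named genes are ZC410.5 (msa-1), F58E10.7 (droe-4), R06F6.7 (msrp-7) and C30B5.7 (srsy-2). ZC410.5 had the highest mean of all 94, with 3513, 506 and 4196 TPM in the mutant against 379, 109.6 and 521 TPM in wild type. Mutant replicate 2 stood just below wild type replicate 3, although the means differed 8.14-fold. F58E10.7 read 899, 2.38 and 248 TPM in the mutant against 35.1, 10.01 and 16.1 TPM in wild type. Its mutant replicate 2 was below every wild type library, the difference did not pass (2.27 ± 1.66, SE, adjusted p = 0.202 by limma), and the ratio of 18.8 dropped to 6.15 without mutant replicate 1 and reached 29.4 without wild type replicate 1. R06F6.7 read 204, 30.3 and 166 TPM against 2.78, 4.09 and 12.8 TPM, and C30B5.7 read 33.2, 9.87 and 101 TPM against 7.86, 1.98 and 4.88 TPM, both without overlap.

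The table gives a description for 3 further genes. C29E4.10, described there as the ortholog of human galactocerebrosidase, a lysosomal enzyme that breaks down galactolipids, read 84.8, 9.01 and 39.5 TPM in unc-4 replicates 1 to 3. In wild type it read 0.727, 0.989 and 0.884 TPM, so the lowest mutant library was 9.11 times the highest wild type one. Its log2(TPM + 1) rose by 4.13 ± 0.99 (SE, adjusted p = 0.0206 by limma), and it had the lowest FDR of the 94 in the authors' deposited table. The ratio of means of 51.3 dropped to 28.01 without mutant replicate 1. Y64G10A.7, described as a homolog of fibrillin-1, an extracellular matrix protein in humans, read 23.9, 22.8 and 44.6 TPM against 3.12, 3.69 and 4.65 TPM, with closely grouped libraries on both sides. C05C9.3, for which a domain rich in glutamine and asparagine is predicted, read 15.3, 5.03 and 5.94 TPM against 0.358, 0.648 and 0.117 TPM. The groups of these 3 genes did not overlap.

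The most abundant of the genes without a name or description were T05A8.3, F26E4.3 and C15C7.4. T05A8.3 (chromosome II, 2714649 to 2717435, WBcel235), with a longest coding sequence of 76 codons, read 2850, 461 and 3498 TPM in unc-4 replicates 1 to 3 and 259, 62.1 and 188 TPM in wild type. It rose by 3.51 ± 0.95 (SE, adjusted p = 0.0241 by limma); 26.8% of its exon bases also belong to nep-2, so its level is uncertain. F26E4.3 (I, 9762364 to 9767846) read 1627, 573 and 1686 TPM against 264, 120.5 and 129 TPM and rose by 2.85 ± 0.79 (SE, adjusted p = 0.0241 by limma). In both genes replicates 1 and 3 of the mutant were close together and replicate 2 was lower but above all wild type values.

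C15C7.4 (X, 3145565 to 3147517) was led by 1 library, with 2891, 33.9 and 570.2 TPM in the mutant and 25.1, 7.93 and 33.8 TPM in wild type. Mutant replicate 2 was barely above wild type replicate 3. The mean ratio of 52.3 dropped to 13.6 without mutant replicate 1. T23G7.3 read 653, 131 and 393 TPM in the mutant against 41.3, 78.1 and 63.8 TPM, and was among the 15 of the 94 genes with their highest wild type value in replicate 2. B0294.1 read 543, 59.0 and 256 TPM against 22.5, 9.32 and 28.8 TPM, and without mutant replicate 1 its ratio of 14.2 dropped to 7.81. Both were separated between the groups.

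**Figure D2:**
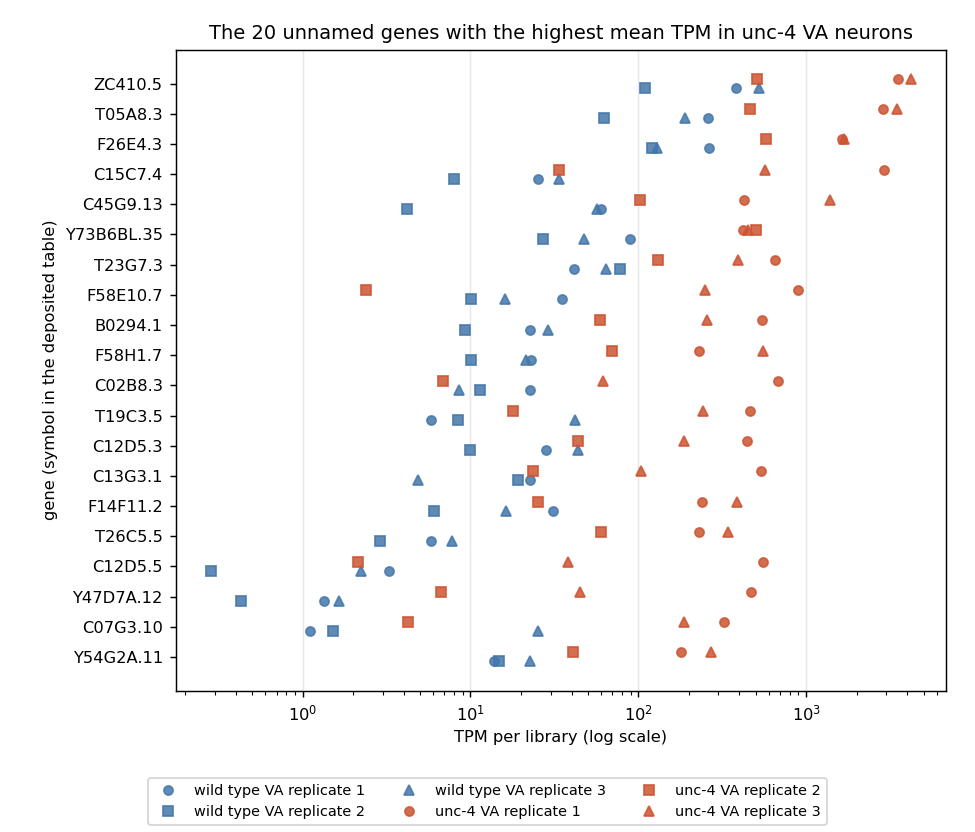
TPM per library, on a log scale, of the 20 unnamed genes with the highest mean in unc-4 VA neurons; blue marks are the 3 wild type and red marks the 3 unc-4 libraries, with a shape for each replicate. Red squares (unc-4 replicate 2) are the lowest mutant value in 19 of the 20 genes, the exception being Y73B6BL.35 with 418, 505 and 450.1 TPM.

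Of the separated genes averaging 5 TPM or more in the mutant, the 10 largest ratios of mean TPM included C15C7.4 and C29E4.10. The largest belonged to F11E6.6, which read 0.249, 6.20 and 12.5 TPM in the mutant and was listed at 0, 0 and 0.0756 TPM in wild type replicates 1 to 3, too low on the wild type side for a ratio to be given weight; it missed limma's threshold (adjusted p = 0.0685). Y47D7A.12 followed with 467, 6.72 and 45.2 TPM against 1.34, 0.432 and 1.64 TPM. Its ratio of 152 dropped to 22.7 without mutant replicate 1. The difference on the log2 scale was 4.73 ± 1.31 (SE, adjusted p = 0.0241 by limma).

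T26C5.5 (II, 9245905 to 9246748), which encodes a predicted protein of 106 codons, had the lowest adjusted p of the 94 in limma's test. It read 228, 60.2 and 342 TPM in the mutant and 5.84, 2.88 and 7.79 TPM in wild type, and rose by 4.78 ± 0.94 (SE, adjusted p = 0.0197 by limma). Even its lowest mutant library was several times above the wild type ones, and with any single library left out its ratio lay between 26.2 and 51.8. H03A11.2 (X) read 78.2, 7.01 and 88.9 TPM against 2.51, 0.875 and 1.51 TPM, with a ratio of 35.6 that lay between 26.1 and 51.2 when a library was left out.

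The ratios of C01C4.2, W05E10.5 and C17H11.1 depended on wild type libraries. C01C4.2 read 68.1, 4.29 and 132 TPM against 3.45, 0.740 and 0.499 TPM, and its ratio of 43.5 became 109.8 without wild type replicate 1 and 23.1 without mutant replicate 3. W05E10.5 read 57.9, 5.04 and 110.2 TPM against 3.28, 0.528 and 0.569 TPM, and its ratio of 39.5 became 105 and 21.6 without the same libraries. C17H11.1 read 32.3, 2.42 and 31.1 TPM against 1.12, 0.406 and 0.239 TPM, a ratio of 37.4 and of 68.1 without wild type replicate 1. M02F4.1, also among the 10, was listed at 0 in a wild type library, and its library values are given with its neighbour below. With the 6 libraries on which the table was selected, C01C4.2, W05E10.5 and C17H11.1 had log2(TPM + 1) differences of 4.01, 3.97 and 3.32 (adjusted p = 0.0257, 0.0243 and 0.0261 by limma). All passed limma's test, as did 80.8% of the table.

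Some of these genes lie near another gene of the mutant table in the genome. Of the 94, 13 (13.8%) had such a gene within 10 kb, close to the 10.7% of the table. On chromosome V, C12D5.5 (7668240 to 7669006), C12D5.4 (7672558 to 7673253) and C12D5.3 (7676204 to 7676965) stand in a row on the plus strand, with 0 protein-coding genes between the neighbours of each adjacent pair and gaps of 3.55 and 2.95 kb. Their longest coding sequences are of like length, at 127, 129 and 127 codons. Whether reads were split between similar copies is not known, so their single values are uncertain.

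C12D5.5 read 552, 2.13 and 38.1 TPM in unc-4 replicates 1 to 3 and 3.25, 0.283 and 2.24 TPM in wild type. C12D5.4 read 229, 5.75 and 21.8 TPM in the mutant and 2.84, 0.408 and 4.24 TPM in wild type. C12D5.3, the most even of them, read 444, 43.9 and 188 TPM against 28.1, 9.93 and 43.6 TPM. All 3 were highest in mutant replicate 1 and lowest in mutant replicate 2, and lowest in wild type replicate 2. That mutant order was the most common one, in 48.9% of the 94 and 43.5% of the table. Wild type replicate 2 was the lowest in 50% and 50.9%. Only C12D5.5 overlapped between the groups, and without mutant replicate 1 the ratios of C12D5.5, C12D5.4 and C12D5.3 fell to 10.5, 5.51 and 4.25 from 103, 34.3 and 8.27. The first was 157 without wild type replicate 1 and the second 52.6 without wild type replicate 3.

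F58H1.5 (V, 11958393 to 11962700, plus strand) and F58H1.7 (11963007 to 11964823, minus strand) face each other with 0.31 kb between them. F58H1.5 read 81.0, 129 and 261 TPM against 10.1, 3.17 and 11.6 TPM, and F58H1.7 read 230.4, 69.8 and 557 TPM against 23.001, 10.01 and 21.4 TPM. Both were highest in mutant replicate 3 and lowest in wild type replicate 2, but they differed in which mutant library was lowest. They rose by 4.07 ± 0.90 and 3.53 ± 0.96 (SE, adjusted p = 0.0199 and 0.0241 by limma). Without mutant replicate 3 the ratio of F58H1.7 dropped from 15.7 to 8.27.

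C16D9.6 and C16D9.1 lie 9.01 kb apart on chromosome V on opposite strands and did not share a pattern. C16D9.6 read 27.1, 32.7 and 67.4 TPM against 10.8, 3.36 and 6.24 TPM, while C16D9.1 read 191, 6.24 and 65.4 TPM against 6.19, 4.505 and 2.88 TPM. Replicate 1 was thus the lowest mutant library of the first gene and the highest of the second, whose ratio of 19.3 dropped to 7.92 without it. On chromosome IV, Y73B6BL.270 lies within Y73B6BL.47, with which it shares all of its exon bases, and 47.7% of the exon bases of Y73B6BL.47 also belong to smg-3. They read 42.9, 61.0 and 124 TPM and 27.6, 22.8 and 62.4 TPM in the mutant, against 12.3, 2.94 and 5.01 TPM and 5.01, 2.59 and 2.51 TPM in wild type, values that cannot be assigned to either gene with certainty. Without wild type replicate 1 the ratio of Y73B6BL.270 went from 11.3 to 19.1.

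**Figure D3:**
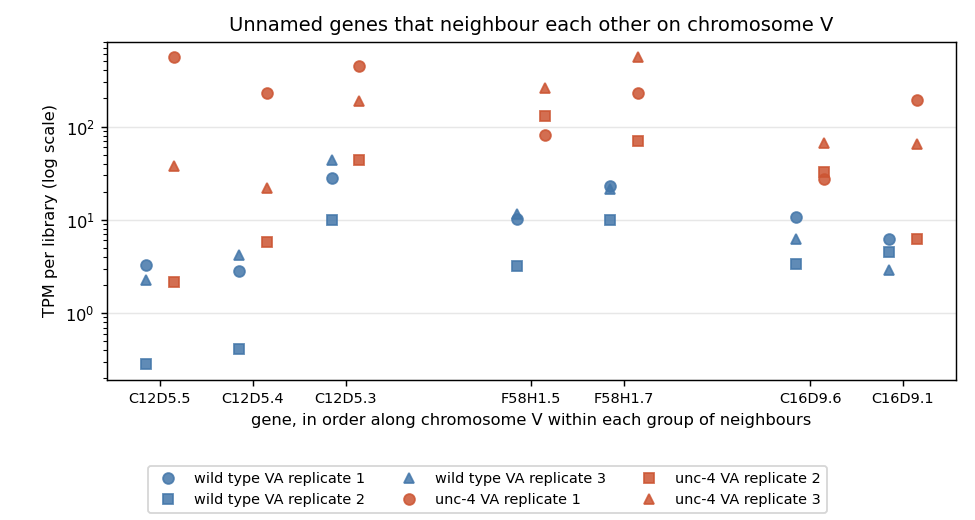
TPM per library, on a log scale, of 7 unnamed genes in 3 groups of neighbours on chromosome V; blue marks are the 3 wild type and red marks the 3 unc-4 libraries. The C12D5 genes share the mutant order replicate 1, 3, 2, which 43.5% of the table also has. C16D9.6 (27.1, 32.7 and 67.4 TPM) and C16D9.1 (191, 6.24 and 65.4 TPM) do not share theirs.

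The other 4 genes had a neighbour with a name or among those set aside. M02F4.1 lies 8.62 kb from the peptide precursor gene flp-18 on chromosome X, with 1 protein-coding gene between them. M02F4.1 read 8.10, 5.74 and 21.0 TPM in the mutant, and its wild type libraries were at 0.375, 0 and 0.478 TPM. B0198.3, 8.13 kb from the ligand-gated channel gene lgc-23, read 56.0, 2.33 and 79.2 TPM against 4.44, 1.11 and 4.17 TPM, overlapped, and missed limma's threshold (adjusted p = 0.0563), with a ratio of 14.1 that dropped to 9.002 without mutant replicate 3. C35E7.4, 6.28 kb from C35E7.2 with 1 protein-coding gene between them, read 29.7, 22.5 and 52.7 TPM against 7.73, 5.51 and 3.21 TPM without overlap. Y67D8B.2, 9.89 kb from Y67D8B.4, rested on a single library, with 0.381, 0.0890 and 26.2 TPM in the mutant against 0.195, 0.235 and 0 TPM.

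The mutant libraries were unequal for most of these genes. Replicate 2 was the lowest of the 3 in 80 of the 94 genes (85.1%, beside 83.2% of the table). Replicate 1 was the highest in 49 (52.1%, beside 45.3% of the table) and replicate 3 in 42 (44.7%, beside 48.6%). Over 70% of a gene's summed mutant TPM came from replicate 1 in 18 genes, from replicate 3 in 8 and from replicate 2 in 1, beside 32, 19 and 4 of the 214 genes of the table. The 18 led by replicate 1 were C15C7.4, F58E10.7, C02B8.3, C13G3.1, C12D5.5, Y47D7A.12, F58B4.3, C16D9.1, C12D5.4, D2024.4, R07B1.8, F42A8.1, Y110A2AL.3, F53F4.2, ZC116.3, Y47H9A.1, C25H3.1 and K02F6.5. Of these, 9 were separated between the groups, beside 70.1% of all genes in the table. The 8 led by replicate 3 were C45G9.13, C30B5.7, ZK757.1, D1044.7, Y73B6BL.37, C14C6.13, Y67D8B.2 and C04E6.5, of which 4 were separated, beside the same 70.1% of the table. That share covers genes of any shape. A gene led by 1 library has less in the others, which makes overlap likelier, so nothing is read from this difference.

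In 16 genes (17.02%, beside 20.1% of the table) the 3 mutant libraries lay within 3-fold of each other, and these 16 were separated from wild type. Every gene of the table had a ratio of means of at least 4.28. Mutant libraries this even thus leave little room for overlap, and nothing is read from that separation. Besides F26E4.3, Y73B6BL.35, Y73B6BL.270, C16D9.6, Y73B6BL.47, C35E7.4 and Y64G10A.7, the 16 were C50E3.6, Y43C5A.3, R06C1.6, F32D1.3, R05G6.10, F11D5.1, ZC581.3, C47D2.1 and C11E4.8. Their ratios of mean TPM ran from 4.92 to 30.04 with a median of 8.17. C50E3.6 read 107, 158 and 179 TPM in the mutant against 19.2, 6.23 and 11.9 TPM in wild type. F11D5.1, with the smallest ratio of the 94, read 38.1, 31.2 and 27.4 TPM against 7.07, 8.27 and 4.31 TPM. At the other end of that range, C47D2.1 read 31.8, 11.7 and 21.4 TPM against 1.25, 0.274 and 0.637 TPM and rose by 3.65 ± 0.89 (SE, adjusted p = 0.0217 by limma).

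Mutant replicate 2 was the highest library in 3 genes, Y73B6BL.35, F43G6.4 and Y66C5A.1, and ceh-12 was also highest there, whereas acr-16 was lowest there. F43G6.4 (II, 11790758 to 11797322) read 44.2, 168 and 45.3 TPM against 2.09, 4.22 and 4.55 TPM, and rose by 3.99 ± 0.91 (SE, adjusted p = 0.0206 by limma). Its lowest mutant library was well above all wild type ones, and its ratio of 23.8 dropped to 12.4 without replicate 2. Y66C5A.1 (X, 14454689 to 14455519), with 73 codons, read 21.8, 189 and 23.9 TPM against 5.90, 2.66 and 4.70 TPM, a ratio of 17.7 that dropped to 5.17 without replicate 2. In the table as a whole replicate 2 was highest in 13 of 214 genes (6.07%).

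**Figure D4:**
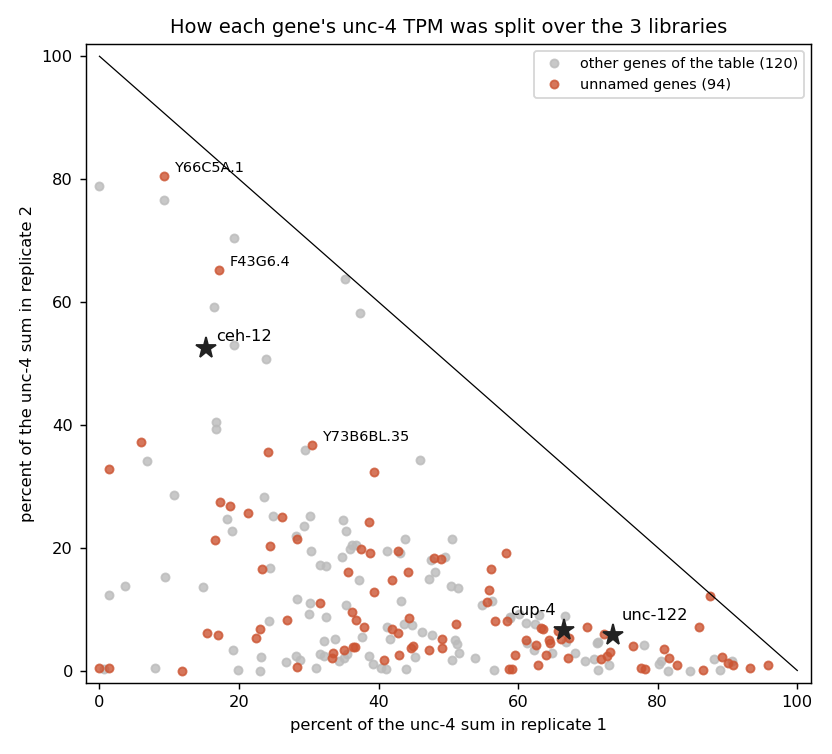
Each point is a gene of the mutant table, with the percent of its summed unc-4 TPM that came from replicate 1 on the x axis and from replicate 2 on the y axis; points on the diagonal have no signal in replicate 3, and stars mark the coelomocyte genes cup-4 and unc-122 and the UNC-4 target ceh-12. Most unnamed genes lie low on the y axis, with 18 of 94 beyond 70% on the x axis, and Y66C5A.1, F43G6.4 and Y73B6BL.35 stand higher on the y axis.

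In 27 genes the groups overlapped, and in 25 of these mutant replicates 1 and 3 were both above every wild type library while replicate 2 was not (26.6% of the 94, beside 27.6% of the table). With replicate 2 left out, 92 of the 94 genes were separated, beside 97.7% of the table. Replicate 2 fell below every wild type library in 3 genes (3.19%, beside 5.14% of the table), F58E10.7, C02B8.3 and R07B1.8. C02B8.3 read 675, 6.85 and 61.9 TPM in the mutant against 22.7, 11.4 and 8.57 TPM, did not pass (adjusted p = 0.125 by limma), and had a ratio of 17.5 that dropped to 2.42 without replicate 1. R07B1.8 read 200.3, 0.186 and 31.3 TPM against 3.67, 4.78 and 0.477 TPM (adjusted p = 0.135 by limma).

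In T19C3.5 and C07G3.10 a single wild type library set the overlap. T19C3.5 read 462, 17.8 and 242 TPM in the mutant against 5.82, 8.49 and 41.9 TPM in wild type, so that replicate 3 stood apart from the other wild type libraries. Its ratio of 12.8 became 33.6 without that library and 6.92 without mutant replicate 1. C07G3.10 read 325, 4.27 and 188 TPM against 1.11, 1.53 and 25.1 TPM, again with a high wild type replicate 3.

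At low levels, 10 genes (10.6%, beside 9.35% of the table) were listed at 0 TPM in at least 1 wild type library and 0 genes in all 3. An exact 0 in such a table can be a failed estimate, so only library values and, where stated, limma's adjusted p are given for them. F26B1.1 read 25.5, 0.0930 and 17.5 TPM in the mutant and 0, 0 and 0.156 TPM in wild type. Y73B6BL.37 read 0, 0.136 and 29.0 TPM against 0, 0.0798 and 0 TPM, so its place in the table rests on mutant replicate 3. K02F6.5 read 17.2, 2.39 and 0.0701 TPM against 0, 0 and 0.0821 TPM and was the only one of the 94 in which mutant replicate 3 did not exceed every wild type library. C14C6.13 read 3.31, 0 and 24.6 TPM against 0.125, 0 and 0 TPM, and C04E6.5 read 7.13, 0.157 and 17.8 TPM against 0.206, 0 and 0.0526 TPM. M01G12.5 and C25H3.1 also overlapped, with 30.4, 0.128 and 21.3 TPM and 27.6, 0.138 and 7.81 TPM in the mutant. The values of the remaining 3 (F11E6.6, M02F4.1 and Y67D8B.2) are given above.

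Several genes not yet given showed clear separation at moderate levels. Y54G2A.11 read 180.3, 40.8 and 270.1 TPM in the mutant against 13.9, 14.8 and 22.7 TPM, with even wild type values. C41G11.1 read 97.5, 7.40 and 46.5 TPM against 2.07, 2.54 and 2.27 TPM. ZC132.3 read 61.3, 4.71 and 26.8 TPM against 1.21, 0.948 and 0.490 TPM, and C10C6.7 read 31.6, 6.05 and 33.5 TPM against 1.32, 0.852 and 0.337 TPM. In all of these mutant replicate 2 was lowest yet above wild type. ZC247.1, which has the longest coding sequence of the 94 at 4389 codons, was separated only narrowly, with 79.6, 8.36 and 74.0 TPM against 6.80, 6.39 and 7.55 TPM, and missed limma's threshold (adjusted p = 0.0526). The 19 genes not described singly had means of 16.2 to 87.7 TPM in the mutant and of 0.752 to 9.63 TPM in wild type, with ratios of 5.06 to 21.6. Of these, 13 were separated, 17 passed limma's test, and 18 had their lowest mutant value in replicate 2. The shares over the table were 70.1%, 80.8% and 83.2%. The 6 with overlap were Y54F10BM.12, ZK856.5, Y34B4A.10, F41E7.7, K07D4.5 and F34D10.4.

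In annotation the 94 genes comprise 93 protein-coding genes and the pseudogene K01A2.3, which read 12.9, 81.3 and 124 TPM in the mutant against 5.02, 10.8 and 2.52 TPM. They lie on all chromosomes, with 23 on V, 20 on X, 16 on II, 15 on IV, 11 on I and 9 on III. The share on X was 21.3%, beside 19.6% for the whole table and 13.7% for all 19985 annotated protein-coding genes. The longest coding sequence had a median of 325 codons over the 93 coding genes, beside 383 over the table and 329 over all protein-coding genes. Of the 94 genes, 65 (69.1%) have 1 annotated transcript, beside 60.3% of the table and 70.2% of all protein-coding genes. Exons of 22 genes (23.4%, beside 22.4% of the table) overlap those of another protein-coding gene. In 5 of them (5.32%, beside 2.34%), T05A8.3, Y73B6BL.270, Y73B6BL.47, F53F4.2 and K02F6.5, more than 20% of exon bases are shared. The levels of these 5 may include reads of the overlapping gene.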

How the data were processed

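The authors deposited a table of TPM values per library, with mean TPM per group, per the file headers. The same headers give the authors' fold change (a ratio whose computation is not stated) and their FDR p-value. The genome build is WBcel235 per the submitters' processing notes; the aligner, counting and strand settings and the authors' test are not given in the sources used here. All 214 genes of the mutant table had an FDR p-value under 0.05, and 2 rows without a gene were left out. The wild type libraries have identical TPM values in both deposited tables. Coordinates, coding lengths and overlaps come from Ensembl release 115 of WBcel235, in which all 94 genes were found; 93 matched a current symbol.

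Means, SDs, ratios of mean TPM and separation of libraries were computed per gene. All 214 genes reached a mean of 1 TPM in the mutant or in wild type. On their log2(TPM + 1), limma 3.58.1 (R 4.3.3) was run with its trend option and Benjamini-Hochberg adjustment. Its use was checked on simulated data with a smaller spread than these libraries and with most genes unchanged. That check says nothing on how far the calls here can be trusted. A fold on the log2(TPM + 1) scale understates the change of low genes. The members, lists and tests were chosen with earlier results of these data known. Named genes were the 10 highest by mean, the 10 highest ratios among separated genes with at least 5 TPM, the 6 most abundant overlapping genes, genes within 10 kb of another listed gene, and those highest in mutant replicate 2; other genes given with values were chosen after their values were seen. A planned comparison of protein and promoter sequences was not made.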

Additional observations from a re-analysis of the deposited data

How the results depend on the processing

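The 77 genes passing limma's test were 79 with log2(TPM + 0.1), 67 with log2(TPM + 5), 78 at a mean of at least 5 TPM and 80 without the variance trend, beside 81.8%, 72.4%, 82.8% and 82.7% of the table, and they ranged from 0 to 94 with 1 library left out. With 1 library left out, the separated count of 67 ranged from 67 to 92, beside 70.6% to 97.7% of the table. The median log2 ratio of 4.07 likewise ranged from 3.38 to 4.47 (2.97 as a difference of mean log2(TPM + 1)), and the ratio of sums of 11.8 from 8.93 to 16.2. Of the 83 genes whose current symbol is still the sequence name in the table, 68 passed and 60 were separated, beside 80.8% and 70.1% of the table. Of 35 named genes, none changed direction under any alternative run, but their direction was set by the choice of genes. In 24 of the 35 the ratio moved by over 1.5 times without 1 library. Whether replicate numbers pair the samples is not known. Same-numbered libraries deviated together with correlations of 0.0188, 0.178 and 0.0562, and the 0.178 of replicate 2 was the largest among all pairings. Correlations over genes selected on this difference cannot settle the pairing. With the replicate block 84 genes passed, beside 86.4% of the table, among them all 77. Depth is unknown, and 3 libraries per group limit every call.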
